A study of Mus musculus with 12 samples.

Results

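The comparison described here set the livers of mice fed a high-fat diet and injected with the compound C2 (HFD+C2) against the livers of mice fed normal chow (NCD). It used 6 of the 12 RNA-seq libraries of the series, the 3 NCD and the 3 HFD+C2 libraries, grouped by their labels. The comparison and the gene lists counted below were chosen with earlier results of these data known. All mice were C57BL/6N. NCD mice ate chow, HFD+C2 mice ate a diet with 60% of its energy from fat, both for 12 weeks, and C2 was given intraperitoneally at 5 mg/kg per day for 12 weeks. The series title calls the injected compounds CYP4A inhibitors (CYP4A enzymes hydroxylate the end carbon of fatty acids), and C2 is known here by that code name alone. The labels do not say whether NCD mice received vehicle injections, nor do they give the sex or age of the animals. HFD+C2 differed from NCD in both diet and compound, which cannot be told apart in this comparison. What it adds to the study is a set of high-fat-fed livers that shares no library with the HFD group without compound. Where HFD minus NCD values are set beside it, those share the NCD libraries.

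The liver makes cholesterol from acetyl-CoA through the mevalonate pathway, and the genes of that pathway are controlled together by the sterol-sensing transcription factor SREBP2, which is released when membrane sterol is low. Hepatic cytochrome P450 enzymes oxidise drugs, steroids and fatty acids; many follow nuclear receptors such as CAR, PXR and PPARα, and many differ between the sexes because growth hormone is secreted in a sex-dependent rhythm and acts through STAT5. Fat stored in hepatocytes sits in droplets coated by perilipin and CIDE proteins.

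Reads counted in genes ranged from 4281210 to 23147418 in NCD and from 23132853 to 27369349 in HFD+C2. At the least depth, 3 counts, taken as the floor, correspond to 0.701 CPM before scaling. Such floors cover counting error only. Some levels printed below, among them those of Cidea, Cfd, Lyve1, Rgs16 and Ttn, rest on 3 counts or fewer in at least 1 library. Levels are given throughout in CPM after TMM scaling, in which each library's gene counts are set against their sum times a scaling factor of that library. NCD replicate 1 and HFD+C2 replicate 1 stood apart from the other libraries. Reads outside annotated features made up 23.2% of NCD replicate 1, against 8.58% and 10.4% of the other NCD libraries, and 10.9% of HFD+C2 replicate 1, against 4.86% and 4.66%. Across 8485 genes, the log2 CPM values of NCD replicate 1 correlated at 0.911 and 0.939 with the other NCD libraries, which correlated at 0.978 with each other, and those of HFD+C2 replicate 1 at 0.949 and 0.947, where the other HFD+C2 libraries reached 0.987. These r values describe libraries across genes, which are not independent replicates. Counts over gene lists are therefore also given without this pair of libraries, called the replicate 1 pair below. As a check of the tissue label, the summed level of 15 hepatocyte markers was 50970 to 109400 CPM in NCD and 113500 to 196100 CPM in HFD+C2, and none of the 15 was at 0 reads. In bulk liver RNA, fewer cells of a type and less RNA per cell cannot be told apart. The labels number the libraries as biological replicates without naming animals, so p-values measure the spread between these libraries.

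A gene was tested if its counts averaged 10 or more, and called if its adjusted p was under 0.05 (edgeR, quasi-likelihood fit, adjusted by Benjamini-Hochberg). Of 13691 genes tested, 219 (1.6%) were called between HFD+C2 and NCD. Of these, 73 (0.533%) were higher in HFD+C2 and 146 (1.07%) were lower. The 3 values of one group did not overlap those of the other in 30.5% of all genes tested, 15.2% higher and 15.3% lower. The number of calls rested on single libraries: it was 188 without NCD replicate 1, 59 without NCD replicate 2, 2 without NCD replicate 3, 11 without HFD+C2 replicate 1, 2 without HFD+C2 replicate 2 and 3 without HFD+C2 replicate 3. Without NCD replicate 1 and HFD+C2 replicate 1 together it was 1273 of 13192 (9.65%), 626 higher (4.75%) and 647 lower (4.9%), and 186 of the 219 genes were among them. The biological coefficient of variation, which is the relative spread between replicates, was 0.347 with all 6 libraries and 0.162 without that pair. Only 2 libraries per group remain without it. The pair was chosen because it stood apart within its groups, so leaving it out lowers this spread. The p-values and counts of calls without the pair, here and below, can therefore be too favourable. The only genes called in each of the 6 fits that left out 1 library were Sqle and Cyp2b10, and Cfd was called in 4. Each other call named below was therefore lost in at least 3 of those fits.

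**Figure D1:**
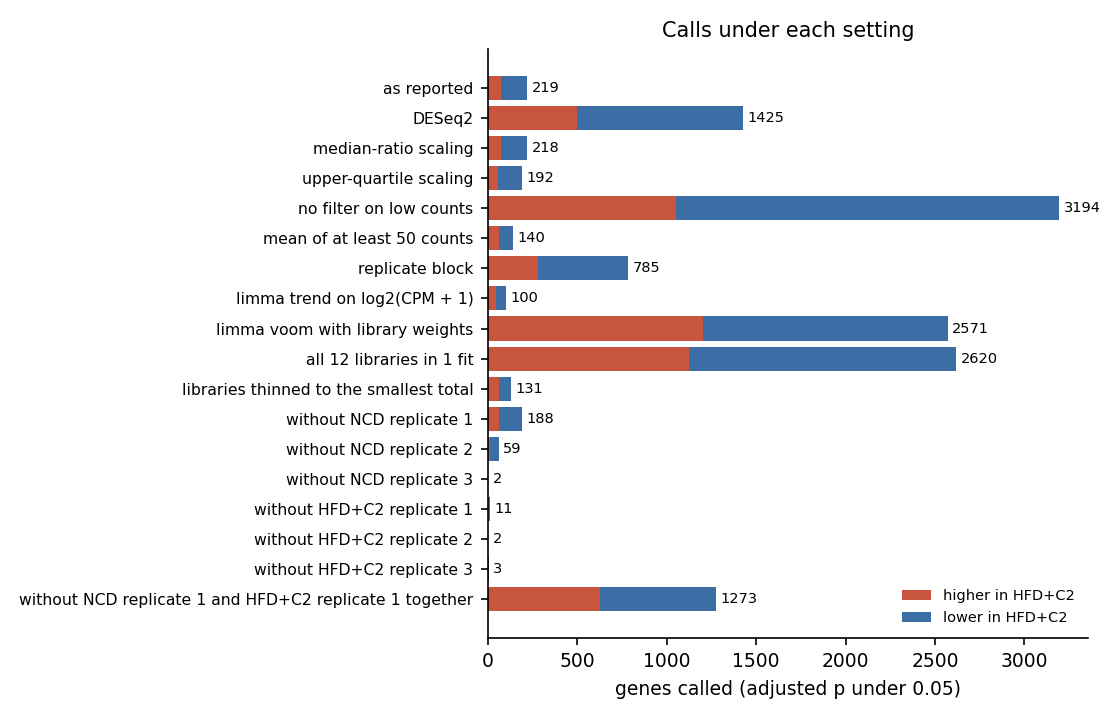
Number of genes called (adjusted p under 0.05, x axis) under each setting (y axis), split into genes higher (red) and lower (blue) in HFD+C2; the number at each bar is the total. The count was 219 with all 6 libraries, from 2 to 188 when 1 library was left out, and 1273 without NCD replicate 1 and HFD+C2 replicate 1 together.

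Genes at most steps of cholesterol synthesis fell in HFD+C2 liver. Of 26 tested genes of cholesterol synthesis and uptake, 15 fell and none rose, against 1.07% lower among all genes, and the median log2 change of the list was -1.61, against 0.01 for all genes. All 26 estimates were below 0, and in 20 the HFD+C2 libraries lay entirely below the NCD libraries, against 15.3% of all genes. The number of members that fell was 18 without NCD replicate 1, 10 without NCD replicate 2, 1 without NCD replicate 3, 3 without HFD+C2 replicate 1, and 1 without HFD+C2 replicate 2 or replicate 3. It was 22 without NCD replicate 1 and HFD+C2 replicate 1 together, with a median of -1.51 and against 4.9% lower among all genes in that fit. Summed over the 27 listed genes, the level was 3586 to 5970 CPM in NCD and 1247 to 1582 CPM in HFD+C2. The values that follow are given in the order of replicates 1, 2 and 3.

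Early in the pathway, Hmgcs1, which makes HMG-CoA, was at 587, 309.7 and 348 CPM in the NCD libraries and 112, 63.8 and 128 CPM in the HFD+C2 libraries. Its groups were separate, with a log2 change of -2.04 (SE 0.36) (edgeR adjusted p = 0.043). The kinases that phosphorylate mevalonate followed the same direction: Mvk fell, with a log2 change of -1.30 (SE 0.25), and Pmvk, at 172, 137 and 109.8 CPM in the NCD libraries and 28.6, 19.2 and 23.1 CPM in the HFD+C2 libraries, fell with one of -2.56 (SE 0.27) (edgeR adjusted p = 0.0491 and 0.0108). Pmvk was the more widely separated of these kinases, its lowest NCD library at several times its highest HFD+C2 library. Mvd, the decarboxylase that yields isopentenyl diphosphate, had a log2 change of -3.24 (SE 0.61), and Idi1, the isomerase, of -2.34 (SE 0.46) (edgeR adjusted p = 0.0469 and 0.0491). Both varied widely within NCD, where Mvd ranged from 2.58 to 13.8 CPM and Idi1 from 12.6 to 46.5 CPM, and without NCD replicate 1 the log2 change of Mvd was -2.40.

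Sqle, squalene epoxidase, which adds the first oxygen on the way to sterols, was at 75.9, 55.8 and 54.04 CPM in the NCD libraries and 4.75, 3.25 and 4.44 CPM in the HFD+C2 libraries. The groups were far apart and tight, and the fall was 14.9-fold, a log2 change of -3.90 (SE 0.27) with edgeR adjusted p = 0.00234. Over the fits that left out 1 library its log2 change stayed between -4.0 and -3.74. Fdps, which builds farnesyl diphosphate, was at 792, 478 and 511 CPM in the NCD libraries and 79.1, 54.1 and 68.9 CPM in the HFD+C2 libraries, again with no overlap, a log2 change of -3.14 (SE 0.31) and edgeR adjusted p = 0.00932. Fdft1, squalene synthase, which lies between these steps, was lower by a smaller amount, with a log2 change of -1.68 (SE 0.22) (edgeR adjusted p = 0.0206).

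After ring closure, Cyp51, the lanosterol demethylase, was at 445, 187 and 223 CPM in the NCD libraries and 29.1, 21.3 and 31.2 CPM in the HFD+C2 libraries, and Msmo1, the C4-methyl sterol oxidase, at 676, 229.6 and 266 CPM in the NCD libraries and 39.5, 23.9 and 37.9 CPM in the HFD+C2 libraries. NCD replicate 1 was the highest library in both, and the other NCD libraries still lay above every HFD+C2 library. The log2 changes were -3.39 (SE 0.38) and -3.53 (SE 0.47) (edgeR adjusted p = 0.0141 and 0.0206), and -2.98 and -3.02 without NCD replicate 1 and HFD+C2 replicate 1. That of Msmo1 was -2.89 without NCD replicate 1 alone. Tm7sf2, a sterol C14 reductase, fell, with a log2 change of -2.74 (SE 0.34) (edgeR adjusted p = 0.0201). Dhcr7, a sterol reductase late in the pathway, was at 20.1, 32.95 and 31.5 CPM in the NCD libraries and 6.11, 11 and 13.4 CPM in the HFD+C2 libraries. Its groups did not overlap, but the log2 change of -1.47 (SE 0.33) did not pass the test (edgeR adjusted p = 0.062). Lss, Nsdhl, Hsd17b7, Ebp, Sc5d and Acat2 had log2 changes from -1.55 to -0.77 and were not called.

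Among regulators and carriers, Insig1, which retains the SREBP escort in the endoplasmic reticulum, and Stard4, a sterol carrier, were called lower with log2 changes of -1.75 (SE 0.35) and -1.22 (SE 0.24). Neither Srebf2, which encodes SREBP2, nor Scap, its escort, was called: the log2 changes were -0.38 (SE 0.32) and -0.18 (SE 0.31) (edgeR adjusted p = 0.506 and 0.74).

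**Figure D2:**
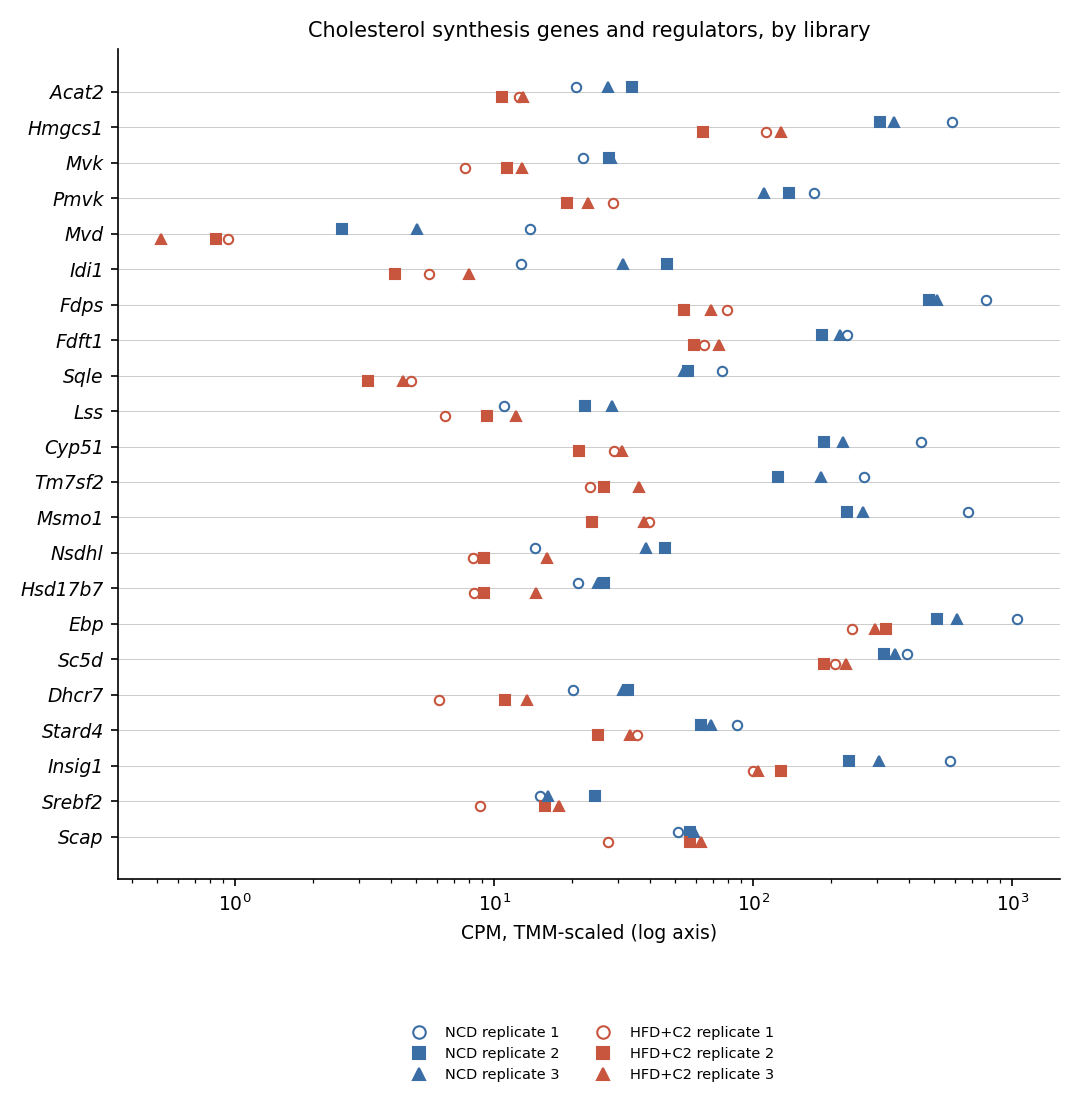
CPM after TMM scaling (x axis, log scale) of 22 genes of cholesterol synthesis and its regulation (y axis, in pathway order from the top, regulators last), 1 point per library, NCD in blue and HFD+C2 in red, with replicate 1 of each group as an open circle. The HFD+C2 libraries lie below the NCD libraries in 18 of the 22 genes, and the groups overlap in Lss, Nsdhl, Srebf2 and Scap.

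Since 15 members fell, promoter sequences are shown for 4 of them, taken from early and late steps of the pathway. RefSeq windows (GRCm38.p6, the 250 bases before each gene's start) were found for 18 of the 26 tested genes, 22 windows in all, and for 9 of the 15 called genes. The CCAAT box, the letters CCAAT on either strand, is bound by NF-Y, a known partner of SREBP2. It occurred in 16 of the 22 windows (72.7%), against 33.8% of all 32851 windows of this length, and in windows of all 9 matched called genes. The core of the sterol regulatory element, searched as TCACNCCAC on both strands, occurred in 1 of the 22 windows and in 1.05% of all windows. These matches describe letters in a window, not binding. The 4 windows follow, 5′ to 3′ on the gene's strand, with CCAAT matches on either strand in capitals.
Mvk (chr5:114444019-114444268, plus strand): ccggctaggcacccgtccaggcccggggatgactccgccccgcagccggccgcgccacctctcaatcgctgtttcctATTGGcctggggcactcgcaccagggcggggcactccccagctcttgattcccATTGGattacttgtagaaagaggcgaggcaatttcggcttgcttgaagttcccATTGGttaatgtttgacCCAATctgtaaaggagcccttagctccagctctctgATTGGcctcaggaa
Idi1 (chr13:8885356-8885605, plus strand): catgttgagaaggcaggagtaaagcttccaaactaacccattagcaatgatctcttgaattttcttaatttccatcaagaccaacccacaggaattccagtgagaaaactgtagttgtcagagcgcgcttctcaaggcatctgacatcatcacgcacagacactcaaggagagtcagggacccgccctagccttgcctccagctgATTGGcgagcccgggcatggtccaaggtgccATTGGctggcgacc
Cyp51 (chr5:4104698-4104947, minus strand): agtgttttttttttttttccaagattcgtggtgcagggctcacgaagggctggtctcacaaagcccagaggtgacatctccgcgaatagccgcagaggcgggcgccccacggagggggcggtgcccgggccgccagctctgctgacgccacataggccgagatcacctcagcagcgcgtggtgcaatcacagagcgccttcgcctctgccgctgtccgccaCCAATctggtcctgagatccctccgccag
Msmo1 (chr8:64733579-64733828, minus strand): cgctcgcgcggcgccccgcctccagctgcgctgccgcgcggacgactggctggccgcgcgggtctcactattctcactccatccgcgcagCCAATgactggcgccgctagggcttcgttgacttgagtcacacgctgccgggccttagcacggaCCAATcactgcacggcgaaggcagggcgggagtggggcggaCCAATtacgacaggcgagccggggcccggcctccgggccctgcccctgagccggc
The windows hold 5 matches in Mvk, 2 in Idi1, 1 in Cyp51 and 3 in Msmo1.

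Within the cytochrome P450 family, 3 neighbouring Cyp2b genes moved in opposite directions. Of 36 tested xenobiotic P450 genes and their receptors, 2 rose and 3 fell, against 0.533% and 1.07% of all genes, with a list median of -0.16. The groups did not overlap in 6 that were higher and 9 that were lower, against 15.2% and 15.3% of all genes. Without the replicate 1 pair 6 of 37 rose and 10 fell, against 4.75% and 4.9% of all genes in that fit, which is also the background of each later count without the pair. Cyp2b10, the classical target of the nuclear receptor CAR, was at 17.4, 21.1 and 19.7 CPM in the NCD libraries and 0.418, 0.321 and 0.905 CPM in the HFD+C2 libraries. All HFD+C2 libraries were below 1 CPM and all NCD libraries above 17, a 34.8-fold fall with a log2 change of -5.12 (SE 0.40) and edgeR adjusted p = 0.00309. When 1 library was left out, the log2 change lay between -5.70 and -4.83.

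Cyp2b9, a P450 known as female-biased in mouse liver, was at 5.11, 15.7 and 20.1 CPM in the NCD libraries and 89.7, 154 and 128 CPM in the HFD+C2 libraries, without overlap, and rose 9.06-fold, a log2 change of 3.18 (SE 0.48) with edgeR adjusted p = 0.032. Its close relative Cyp2b13 was at 0.0866, 0.862 and 0.792 CPM in the NCD libraries and 3.97, 11.7 and 4.65 CPM in the HFD+C2 libraries, also without overlap, a log2 change of 3.57 (SE 0.70) with edgeR adjusted p = 0.0491. Without NCD replicate 1 and HFD+C2 replicate 1 these log2 changes were 2.93 and 3.31, and that of Cyp2b13 was 4.26 without NCD replicate 3 and 2.93 without HFD+C2 replicate 2. The longest coding transcripts of Cyp2b9 and Cyp2b13 were 89.3% identical and those of Cyp2b10 and Cyp2b9 84.4%, so reads could be shared between these genes, most of all between the pair that rose. In the promoter windows, the 250 bases before the start were 99.2% identical between Cyp2b9 and Cyp2b13, which both rose, and 70% identical between Cyp2b10 and Cyp2b9, which moved apart. The windows are printed for the gene that fell and for the gene that rose, in lower case since no motif is marked.
Cyp2b10 (chr7:25897408-25897657, plus strand): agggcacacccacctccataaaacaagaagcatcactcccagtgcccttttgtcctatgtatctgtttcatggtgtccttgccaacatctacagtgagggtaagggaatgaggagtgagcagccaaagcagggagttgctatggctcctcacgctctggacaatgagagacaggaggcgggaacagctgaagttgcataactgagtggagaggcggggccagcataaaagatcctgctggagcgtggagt
Cyp2b9 (chr7:26173159-26173408, plus strand): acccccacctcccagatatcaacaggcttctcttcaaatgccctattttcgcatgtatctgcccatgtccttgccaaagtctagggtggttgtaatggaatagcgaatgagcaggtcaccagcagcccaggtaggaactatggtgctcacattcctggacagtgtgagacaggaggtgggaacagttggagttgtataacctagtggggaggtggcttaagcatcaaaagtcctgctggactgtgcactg
Both genes lie on chromosome 7 in the same orientation.

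Cyp3a11, a major drug-metabolising P450 and a target of PXR, was at 2735, 4300 and 4731 CPM in the NCD libraries and 1252, 985 and 542 CPM in the HFD+C2 libraries. Every HFD+C2 library lay below every NCD library, with a log2 change of -2.08 (SE 0.40) and edgeR adjusted p = 0.0483. Cyp2c55, at 14.4, 16.8 and 12.4 CPM in the NCD libraries and 1.62, 4.54 and 1.34 CPM in the HFD+C2 libraries, fell, with a log2 change of -2.52 (SE 0.46) (edgeR adjusted p = 0.0457), which was -3.28 without HFD+C2 replicate 2. Cyp2a5, which hydroxylates coumarin, had separate groups and a log2 change of -1.45 (SE 0.32) but was not called (edgeR adjusted p = 0.0592). The receptors were not called: Nr1i2 (PXR) had a log2 change of 0.40 (SE 0.42), Nr1i3 (CAR) of 0.36 (SE 0.37) and Ahr of 0.47 (SE 0.28).

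The Cyp4a family, named in the series title, was divided. Of 6 tested members, Cyp4a12a and Cyp4a12b fell and none rose, against 1.07% and 0.533% of all genes, and the list median was 0.30; without the replicate 1 pair 2 rose and 2 fell. Cyp4a12a, a male-biased fatty acid hydroxylase that makes 20-HETE, was at 143, 252 and 178 CPM in the NCD libraries and 43.2, 41.7 and 47.7 CPM in the HFD+C2 libraries. Cyp4a12b was at 32.4, 54.9 and 40.1 CPM in the NCD libraries and 3.03, 7.83 and 6.46 CPM in the HFD+C2 libraries. In both the groups were widely separate, with log2 changes of -2.11 (SE 0.27) and -2.87 (SE 0.38) (edgeR adjusted p = 0.0206 and 0.0206). Their longest coding transcripts were 97.1% identical, so the split of reads between them is uncertain.

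Cyp4a10 and Cyp4a14, the PPARα-inducible members, had estimates above 0. Cyp4a10 was at 65.7, 156 and 150.5 CPM in the NCD libraries and 181, 298 and 239 CPM in the HFD+C2 libraries, and Cyp4a14 at 169, 109 and 181 CPM in the NCD libraries and 256, 397 and 267 CPM in the HFD+C2 libraries. In both, every HFD+C2 library was above every NCD library, but the log2 changes of 0.95 (SE 0.36) and 1.00 (SE 0.29) did not pass the test (edgeR adjusted p = 0.17 and 0.102). Without NCD replicate 1 and HFD+C2 replicate 1 both were called, within the limits given above for that fit. The log2 changes were then 0.80 and 1.17 (edgeR adjusted p = 0.0206 and 0.0192). Cyp4a31 and Cyp4a32 overlapped between groups, with log2 changes of 0.17 (SE 0.47) and 0.44 (SE 0.36). In HFD minus NCD, which shares the NCD libraries, the log2 changes were -1.28 (SE 0.43) for Cyp4a12a, -2.31 (SE 0.57) for Cyp4a12b, 1.11 (SE 0.31) for Cyp4a10 and 0.62 (SE 0.26) for Cyp4a14.

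Several genes known to be male-biased in mouse liver through growth hormone and STAT5 fell in HFD+C2. Of 31 tested, 6 fell and none rose, against 1.07% lower among all genes, with a median log2 change of -0.85. The number that fell was 3 without NCD replicate 2, 1 without HFD+C2 replicate 1 and 0 without NCD replicate 3, HFD+C2 replicate 2 or HFD+C2 replicate 3; at an unadjusted p under 0.05 it was 12 with all libraries, against 12.7% of all genes lower. DESeq2 called 10 lower, limma trend 4 and voom 24, against 6.79%, 0.409% and 10% of all genes. Without NCD replicate 1 and HFD+C2 replicate 1, 26 of 30 fell, against 4.9% lower among all genes in that fit, and the median was -1.77. Selenbp2, a selenium-binding protein, was at 431, 256 and 249.5 CPM in the NCD libraries and 29.7, 17.8 and 28.9 CPM in the HFD+C2 libraries, a log2 change of -3.62 (SE 0.34) with edgeR adjusted p = 0.00852 and no overlap. Elovl3, a fatty acid elongase, was at 994, 984 and 966 CPM in the NCD libraries and 165, 274 and 246 CPM in the HFD+C2 libraries, with NCD values almost equal and all HFD+C2 values far lower, and fell, with a log2 change of -2.10 (SE 0.28) (edgeR adjusted p = 0.0206). Cyp7b1, the oxysterol 7α-hydroxylase, and Ugt2b38, a glucuronosyltransferase, fell, with log2 changes of -1.34 (SE 0.27) and -3.13 (SE 0.60). The remaining called members were Cyp4a12a and Cyp4a12b.

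The major urinary proteins (Mup) are a large family of near-identical secreted carriers whose reads could be split in counting. Of 17 tested Mup genes of this list, HFD+C2 replicate 1 was the highest HFD+C2 library in 17 and the highest of all 6 libraries in 11. None was called with all libraries, and 14 of 16 fell without the replicate 1 pair. Mup20 was at 2753, 2645 and 2706 CPM in the NCD libraries and 7066, 2119 and 2135 CPM in the HFD+C2 libraries, and Mup15 at 364, 776 and 592 CPM in the NCD libraries and 1306, 12.4 and 139 CPM in the HFD+C2 libraries. In both genes HFD+C2 replicate 1 was the highest of all 6 libraries and the other HFD+C2 libraries were the lowest, so the groups overlapped and neither was called. The log2 change of Mup15 was -0.25 (SE 1.15) with all libraries and -3.19 without NCD replicate 1 and HFD+C2 replicate 1, and that of Mup20 was 0.48 (SE 0.49) and -0.34. Mup11 was at 72.1, 65.5 and 108 CPM in the NCD libraries and 38.8, 6.83 and 19.5 CPM in the HFD+C2 libraries, lower in every HFD+C2 library, with a log2 change of -1.92 (SE 0.53) that was not called (edgeR adjusted p = 0.093) and one of -2.75 without the pair (edgeR adjusted p = 0.00255). Mup11 was 1 of 2 Mup genes whose groups did not overlap, and the other was Mup8, against 15.3% of all genes lower without overlap. Of 14 tested female-biased genes, 3 rose and none fell, against 0.533% and 1.07% of all genes, with a median of 1.16. The groups did not overlap in 7 that were higher and 3 that were lower, against 15.2% and 15.3%; 2 rose without NCD replicate 1 and 0 in each other fit that left out 1 library, while 6 of 13 rose and 1 fell without the replicate 1 pair. They were Cyp2b9, Cyp2b13 and Slc22a27, an organic anion transporter at 0.519, 0.646 and 1.17 CPM in the NCD libraries and 8.83, 5.18 and 4.61 CPM in the HFD+C2 libraries with a log2 change of 2.88 (SE 0.45) (edgeR adjusted p = 0.0353), which was 2.22 without the pair. Cyp2c40, on the same list, had lower values in every HFD+C2 library, a log2 change of -3.39 (SE 0.78) that was not called (edgeR adjusted p = 0.063); it was -2.35 without NCD replicate 1, -4.44 without HFD+C2 replicate 2 and -2.04 without the pair.

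**Figure D3:**
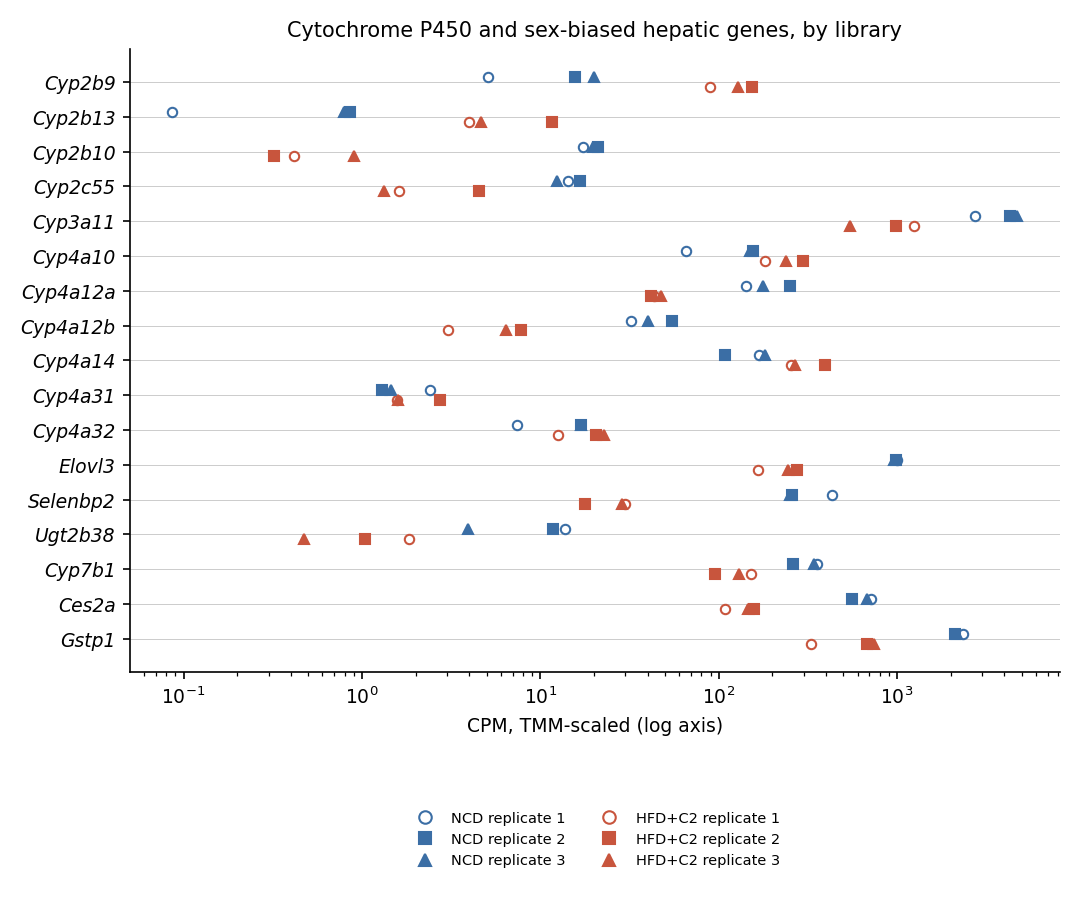
CPM after TMM scaling (x axis, log scale) of P450, sex-biased and conjugating genes (y axis), 1 point per library, NCD in blue and HFD+C2 in red, with replicate 1 of each group as an open circle. Cyp2b9 and Cyp2b13 are higher and Cyp2b10, Cyp2c55, Cyp3a11, Cyp4a12a, Cyp4a12b, Elovl3 and Selenbp2 lower in every HFD+C2 library.

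Enzymes of conjugation and ester cleavage gave 1 rise and 3 falls among 50 tested genes, against 0.533% and 1.07% of all genes, with a median of -0.20. The groups did not overlap in 7 that were higher and 16 that were lower, against 15.2% and 15.3%; without the replicate 1 pair 3 rose and 15 fell. Ces2a, a carboxylesterase, was at 714, 556 and 682 CPM in the NCD libraries and 108, 157 and 146 CPM in the HFD+C2 libraries, with a wide gap between groups, a log2 change of -2.25 (SE 0.27) and edgeR adjusted p = 0.0187. Gstp1, a glutathione transferase, was at 2331, 2123 and 2165 CPM in the NCD libraries and 329, 679 and 739.8 CPM in the HFD+C2 libraries, without overlap, a log2 change of -1.92 (SE 0.36) and edgeR adjusted p = 0.0457. The third fall was Ugt2b38, given above. Nfe2l2, which encodes the antioxidant regulator NRF2, rose by a log2 change of 1.34 (SE 0.27) (edgeR adjusted p = 0.0498).

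Genes of lipid storage and fatty acid uptake were higher in few, large cases. Of 21 tested lipid droplet genes 1 rose, with a median of 0.48, and of 21 fatty acid uptake genes 1 rose, with a median of 0.38, against 0.533% higher among all genes. The groups did not overlap in 8 higher and no lower lipid droplet genes and in 7 higher and 4 lower uptake genes, against 15.2% and 15.3% of all genes. Without the replicate 1 pair 4 lipid droplet genes rose and none fell, and 3 fatty acid uptake genes rose and 5 fell. Plin4, a perilipin, was at 0.346, 1.72 and 0.792 CPM in the NCD libraries and 15.9, 11.1 and 10.6 CPM in the HFD+C2 libraries, separate between groups, a log2 change of 3.92 (SE 0.48) with edgeR adjusted p = 0.0201. Cd36, the fatty acid translocase, was at 25.2, 35.3 and 27.8 CPM in the NCD libraries and 153, 136 and 86.2 CPM in the HFD+C2 libraries, with a 4.26-fold rise, a log2 change of 2.09 (SE 0.28) and edgeR adjusted p = 0.0206. All HFD+C2 libraries of both genes were above all NCD libraries.

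Cidea and Cidec, which drive the growth of large lipid droplets, had estimates above 0 and spread widely. Cidea was at 0.26, 0.646 and 0.0833 CPM in the NCD libraries and 34.1, 1.77 and 4.57 CPM in the HFD+C2 libraries, and Cidec at 1.73, 5.17 and 1.96 CPM in the NCD libraries and 47.4, 11.1 and 14.3 CPM in the HFD+C2 libraries. HFD+C2 replicate 1 was far above the other HFD+C2 libraries in both, and no HFD+C2 library fell among the NCD libraries. The log2 changes of 5.88 (SE 1.34) and 3.19 (SE 0.66) did not pass the test (edgeR adjusted p = 0.0626 and 0.0521); without NCD replicate 1 and HFD+C2 replicate 1 they were 4.0 and 2.11 (edgeR adjusted p = 0.0123 and 0.00727), and without HFD+C2 replicate 1 alone 3.6 and 2.24. The NCD libraries held 3, 3 and 2 counts of Cidea, at or under the floor. The ratio of its levels was 60.2, with a 95% counting interval of 30.4 to 139.9. Plin2, the main perilipin of fatty liver, was at 422, 641 and 484 CPM in the NCD libraries and 1114, 459.5 and 624 CPM in the HFD+C2 libraries, overlapping, with a log2 change of 0.51 (SE 0.36) that turned to -0.06 without the replicate 1 pair. Pparg, the adipogenic nuclear receptor, had a log2 change of 0.98 (SE 0.27) (edgeR adjusted p = 0.0917).

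De novo lipogenesis gave no rise and 2 falls among 23 tested genes, against 0.533% and 1.07% of all genes, with a median of -0.42; without the replicate 1 pair 2 rose and 6 fell. Acacb, the acetyl-CoA carboxylase whose product restrains fatty acid entry into mitochondria, was at 45.97, 68.5 and 26.3 CPM in the NCD libraries and 11.02, 8.43 and 11.2 CPM in the HFD+C2 libraries. The groups did not overlap, and the log2 change was -2.19 (SE 0.35) (edgeR adjusted p = 0.0353). Elovl3, described above, was the other. Fasn, fatty acid synthase, was at 194, 208 and 102 CPM in the NCD libraries and 102, 141 and 131 CPM in the HFD+C2 libraries, and Scd1, the stearoyl-CoA desaturase, at 5337, 6033 and 3941 CPM in the NCD libraries and 3953, 5897 and 3496 CPM in the HFD+C2 libraries. Both overlapped between groups, with log2 changes of -0.43 (SE 0.31) and -0.20 (SE 0.34).

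Fatty acid oxidation and ketogenesis gave 1 rise and 1 fall among 32 tested genes, against 0.533% and 1.07% of all genes, with a median of 0.19. In 10 that were higher and 1 that was lower the groups did not overlap, against 15.2% and 15.3%; without the replicate 1 pair 5 rose and 1 fell. Vnn1, a pantetheinase and PPARα target, was at 11, 35.1 and 26.8 CPM in the NCD libraries and 127, 74.8 and 97.2 CPM in the HFD+C2 libraries, without overlap, a log2 change of 2.05 (SE 0.41) (edgeR adjusted p = 0.0495). Pdk4, the kinase that shuts off pyruvate dehydrogenase, was at 38.9, 24.1 and 31.5 CPM in the NCD libraries and 9.14, 3.45 and 6.98 CPM in the HFD+C2 libraries and fell, with a log2 change of -2.28 (SE 0.37) (edgeR adjusted p = 0.0353). Cpt1a, which carries long-chain fatty acids into mitochondria, was at 27.4, 88.95 and 82.8 CPM in the NCD libraries and 199, 210.3 and 309 CPM in the HFD+C2 libraries, separate between groups but not called, with a log2 change of 1.85 (SE 0.43) (edgeR adjusted p = 0.0641). Ppara itself had a log2 change of 1.24 (SE 0.32) (edgeR adjusted p = 0.0792). Abcd2, a peroxisomal transporter of very long chain fatty acids named after its values were seen, was at 3.20, 2.37 and 3.25 CPM in the NCD libraries and 14.3, 16.5 and 22.9 CPM in the HFD+C2 libraries, with a log2 change of 2.57 (SE 0.29) and edgeR adjusted p = 0.0141.

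Among 22 tested apolipoprotein and lipoprotein genes 1 rose, against 0.533% of all genes, with a median of 0.23; without the replicate 1 pair 5 rose and 1 fell. Apoa4, an apolipoprotein of triglyceride-rich particles, was at 71.2, 195 and 135 CPM in the NCD libraries and 3415, 892 and 1366 CPM in the HFD+C2 libraries. Every HFD+C2 library was several times above every NCD library, a 14.2-fold rise with a log2 change of 3.82 (SE 0.60) and edgeR adjusted p = 0.0353; without NCD replicate 1 and HFD+C2 replicate 1 the log2 change was 2.77, and it was 3.09 without HFD+C2 replicate 1 alone. Apoe, a ligand of lipoprotein receptors, was at 46460, 47200 and 48600 CPM in the NCD libraries and 79570, 58290 and 57590 CPM in the HFD+C2 libraries, a log2 change of 0.46 (SE 0.39) that was not called. In sterol efflux and bile acid handling, Abcg5, which with Abcg8 pumps sterols into bile, was at 13.1, 18.7 and 21.8 CPM in the NCD libraries and 38.8, 94.5 and 58.2 CPM in the HFD+C2 libraries, without overlap, and rose by a log2 change of 1.84 (SE 0.36) (edgeR adjusted p = 0.0483). Abcg8 was at 6.49, 31.9 and 31.5 CPM in the NCD libraries and 46.5, 148 and 105 CPM in the HFD+C2 libraries, likewise higher in every HFD+C2 library, with a log2 change of 2.11 (SE 0.60) and edgeR adjusted p = 0.0974. The called members of the 22 tested bile acid genes were Abcg5 and Cyp7b1, against 1.6% of all genes, and without the replicate 1 pair 3 rose and 2 fell. Cyp7a1, the rate-limiting enzyme of bile acid synthesis, was at 52.98, 37.05 and 31.6 CPM in the NCD libraries and 11.5, 32.1 and 13.96 CPM in the HFD+C2 libraries, with 1 HFD+C2 library inside the NCD range and a log2 change of -1.08 (SE 0.40) (edgeR adjusted p = 0.162).

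Secreted regulators and amino acid enzymes added a few separate changes. Igfbp2, which binds insulin-like growth factors, was at 375, 464 and 602 CPM in the NCD libraries and 162, 147 and 192 CPM in the HFD+C2 libraries, without overlap, a log2 change of -1.52 (SE 0.27) and edgeR adjusted p = 0.0424. Inhbe, a hepatokine of the activin family, was at 16.3, 30.6 and 23.7 CPM in the NCD libraries and 64.1, 56.3 and 104 CPM in the HFD+C2 libraries, also without overlap, a log2 change of 1.68 (SE 0.32) (edgeR adjusted p = 0.0483). They were the called genes among 26 tested hepatokines, against 1.6% of all genes, and the list median was 0.49; without the replicate 1 pair 8 rose and 2 fell. Csad, the decarboxylase of taurine synthesis, was at 238, 201 and 201 CPM in the NCD libraries and 48.3, 30.04 and 38.1 CPM in the HFD+C2 libraries and fell 5.5-fold, a log2 change of -2.46 (SE 0.26) with edgeR adjusted p = 0.0108. It was the only call among 43 tested genes of amino acid and one-carbon metabolism, against 1.6% of all genes, and the list median was 0.05; without the replicate 1 pair 6 rose and 2 fell.

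Inflammatory and matrix lists had medians above 0 and few calls. Of 47 tested acute phase and complement genes 2 rose, Cfd and Lcn2, against 0.533% of all genes, with a median of 0.44; the groups did not overlap in 21 that were higher and 1 that was lower, against 15.2% and 15.3% of all genes. Without the replicate 1 pair 14 rose and 3 fell, and the median was 0.27. Cfd, complement factor D or adipsin, was at 0.346, 0.431 and 0.667 CPM in the NCD libraries and 34.95, 26.4 and 11.8 CPM in the HFD+C2 libraries, a 46-fold rise with a log2 change of 5.53 (SE 0.52) and edgeR adjusted p = 0.00852, and of 4.92 without the pair. Lcn2, a siderophore-binding protein of the acute phase, was at 0.693, 0.862 and 2.54 CPM in the NCD libraries and 9.20, 14.8 and 14.2 CPM in the HFD+C2 libraries, a log2 change of 3.06 (SE 0.48) (edgeR adjusted p = 0.0353), which was 4.06 without NCD replicate 3. Neither gene had any HFD+C2 library near the NCD range. Cfd is also an adipocyte marker: the 15 listed adipocyte markers summed to 1779 to 3070 CPM in NCD and 3009 to 3615 CPM in HFD+C2, mostly from Car3, which hepatocytes also express, and 1 of the 8 tested was called, against 1.6% of all genes. The median log2 change of the 8 was 1.31, with 7 above 0 and 4 higher in every HFD+C2 library, against 15.2% of all genes, and 3 rose without the replicate 1 pair. Among them Fabp4, a fatty acid-binding protein of adipocytes, was at 14.7, 6.68 and 9.33 CPM in the NCD libraries and 59.6, 26.8 and 10.6 CPM in the HFD+C2 libraries, with a log2 change of 1.64 (SE 0.57) that was not called (edgeR adjusted p = 0.141) and was 0.86 without HFD+C2 replicate 1. The part of adipose cells in the rise of Cfd was not tested.

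Of 26 tested macrophage and chemokine genes 1 rose, against 0.533% of all genes, with a median of 0.53 and 13 that were higher in every HFD+C2 library, against 15.2% of all genes. Without the replicate 1 pair 5 rose and none fell. Cxcl9, a chemokine induced by interferon-γ, was at 1.82, 1.94 and 3.96 CPM in the NCD libraries and 8.52, 14.7 and 16.6 CPM in the HFD+C2 libraries, a log2 change of 2.29 (SE 0.40) (edgeR adjusted p = 0.0417). Clec4f, a Kupffer cell marker, was at 47.3, 68.1 and 56.6 CPM in the NCD libraries and 198, 91.6 and 69.2 CPM in the HFD+C2 libraries, with HFD+C2 replicate 1 the highest and a log2 change of 1.06 (SE 0.38) that was not called and was 0.50 without HFD+C2 replicate 1 and 0.36 without the pair. The 37 listed genes summed to 327.4 to 406.4 CPM in NCD and 401.5 to 743.8 CPM in HFD+C2. Of 39 tested interferon response genes edgeR called none, with 15 at an unadjusted p under 0.05, all higher, against 9.71% of all genes. DESeq2 called 5 higher, limma trend 0 and voom 9, against 3.62%, 0.321% and 8.77% of all genes. In this list 21 genes were higher and 2 lower in every HFD+C2 library, against 15.2% and 15.3% of all genes, and the median was 0.65. Without the replicate 1 pair edgeR called 5 of 38 higher and none lower.

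Of 34 tested collagen and stellate cell genes 2 rose, against 0.533% of all genes, with a median of 0.55. In 11 that were higher and 1 that was lower the groups did not overlap, against 15.2% and 15.3%; without the replicate 1 pair 3 of 35 rose and none fell. Col3a1, a fibrillar collagen, was at 7.88, 11.4 and 8.58 CPM in the NCD libraries and 30.5, 21.4 and 18.9 CPM in the HFD+C2 libraries, and Vim, vimentin, at 11.2, 14.4 and 17.7 CPM in the NCD libraries and 41.5, 41.3 and 29.6 CPM in the HFD+C2 libraries. Both were separate between groups, with log2 changes of 1.36 (SE 0.27) and 1.37 (SE 0.26) (edgeR adjusted p = 0.0491 and 0.0467). Col1a1 had a log2 change of 1.92 (SE 0.46) and was not called (edgeR adjusted p = 0.0706). Lyve1, a marker of liver sinusoidal endothelium, was at 1.21, 0.431 and 0.708 CPM in the NCD libraries and 6.32, 5.98 and 5.52 CPM in the HFD+C2 libraries and rose by a log2 change of 2.84 (SE 0.40) (edgeR adjusted p = 0.0257). It was the only call among 15 endothelial markers, against 1.6% of all genes, and the list median was 0.34; without the replicate 1 pair 3 rose and the median was 0.08.

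In the circadian clock list, 1 of 19 tested genes rose and none fell, against 0.533% and 1.07% of all genes, with a median of 0.03; without the replicate 1 pair 4 of 20 rose and 3 fell. Dbp, a transcription factor whose level follows the clock, had 3 counts in all NCD libraries and 368 in HFD+C2. The ratio of its levels was 73.6, with a 95% counting interval of 24.98 to 358.4, and the log2 change was 6.05 (SE 0.78) (edgeR adjusted p = 0.0206). Nr1d1, the clock repressor REV-ERBα, was at 1.56, 5.17 and 11.9 CPM in the NCD libraries and 18.2, 56.2 and 53.95 CPM in the HFD+C2 libraries, higher in each HFD+C2 library but not called, with a log2 change of 2.73 (SE 0.67) (edgeR adjusted p = 0.072), which was 3.79 without NCD replicate 3. Arntl (BMAL1), which it represses, was at 16.97, 29.1 and 21.8 CPM in the NCD libraries and 9.04, 13.6 and 12.3 CPM in the HFD+C2 libraries, lower without overlap and not called (edgeR adjusted p = 0.0983). The labels do not give the time of tissue collection, and its part in these values was not tested. Among 17 tested immediate-early genes, Egr1, at 7.71, 9.69 and 16.6 CPM in the NCD libraries and 3.34, 2.57 and 3.79 CPM in the HFD+C2 libraries, was the only call, a log2 change of -1.82 (SE 0.35) with edgeR adjusted p = 0.0483, against 1.07% of all genes lower; the list median was -0.68, and 5 fell without the replicate 1 pair.

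**Figure D4:**
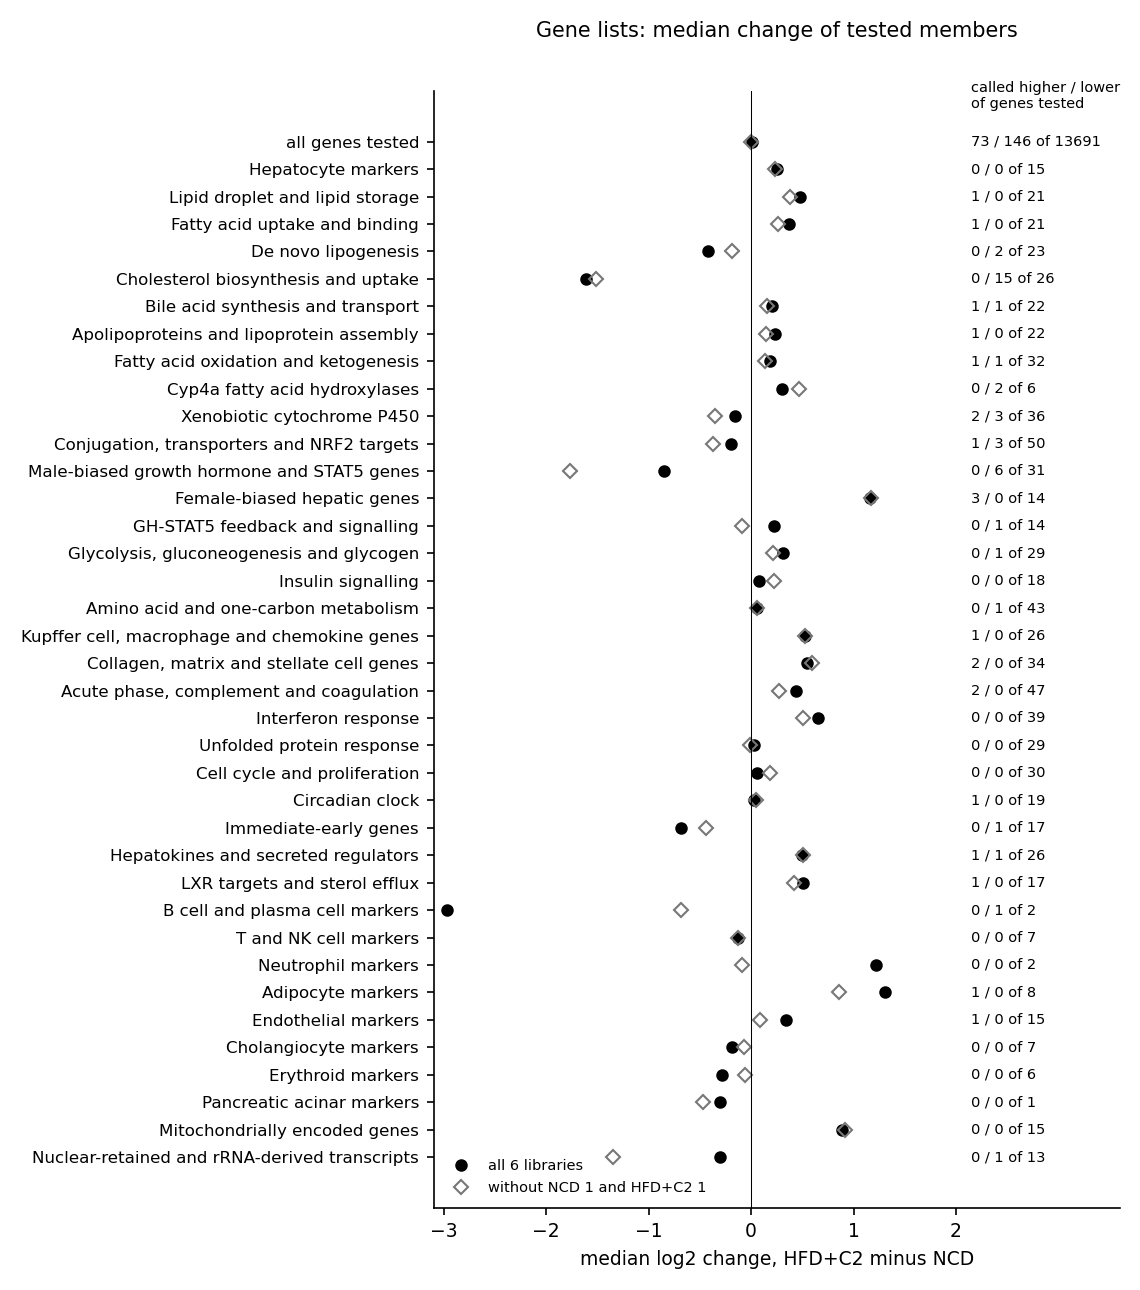
Median log2 change of the tested members of each gene list (x axis; y axis, the lists, with all genes tested at the top), with all 6 libraries (filled circles) and without NCD replicate 1 and HFD+C2 replicate 1 (open diamonds); the figures at the right are members called higher and lower of those tested. Cholesterol synthesis lies at -1.61 and -1.51, and the male-biased list moves from -0.85 to -1.77 between the settings.

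Other processes had few or no calls. Among 15 hepatocyte markers, 18 insulin signalling genes, 29 unfolded protein response genes and 30 cell cycle genes edgeR called none, with medians of 0.26, 0.07, 0.03 and 0.05. At an unadjusted p under 0.05, 4 hepatocyte markers were higher, 2 insulin signalling genes higher and 1 lower, 6 unfolded protein response genes higher and 2 lower, and 5 cell cycle genes higher and 1 lower, against 22.4% of all genes in either direction. DESeq2 called 3, 1, 5 and 2 genes of these lists, voom 5, 1, 7 and 4, and limma trend 0 in each, against 10.4%, 18.8% and 0.73% of all genes. Without the replicate 1 pair edgeR called 6 hepatocyte markers higher, 1 insulin signalling gene higher and 1 lower, 1 unfolded protein response gene higher and 2 lower, and 1 of 28 cell cycle genes lower. Pcna, the replication clamp, was at 27.1, 27.4 and 28.3 CPM in NCD and 26.8, 27.9 and 26.5 CPM in HFD+C2. The 6 libraries were nearly level in this gene. Of the 15 mitochondrially encoded genes edgeR and limma trend called none, with 7 higher and 1 lower at an unadjusted p under 0.05, against 9.71% and 12.7% of all genes. Of these 15 voom called 7 higher and 1 lower, DESeq2 6 higher and 1 lower, and edgeR without the replicate 1 pair 8 higher and 1 lower, against shares called higher among all genes of 8.77%, 3.62% and 4.75%. Their sum was 22020, 21600 and 29310 CPM in NCD and 56720, 84220 and 74460 CPM in HFD+C2, with no overlap and a median log2 change of 0.89. COX1, a subunit of cytochrome c oxidase, was at 1996, 8256 and 7809 CPM in the NCD libraries and 11610, 30960 and 29930 CPM in the HFD+C2 libraries, with a log2 change of 2.00 (SE 0.62) (edgeR adjusted p = 0.111) and of 1.91 without the pair (edgeR adjusted p = 0.000514). Of 13 tested nuclear-retained and rRNA-derived transcripts 1 fell and none rose, against 1.07% and 0.533% of all genes, with 6 estimates above 0 and 7 below; without the replicate 1 pair 8 of 12 fell. Neat1 was the transcript that fell, with a log2 change of -1.91 (SE 0.36) (edgeR adjusted p = 0.0483), and Malat1 had a log2 change of -1.16 (SE 0.31) (edgeR adjusted p = 0.0842) that did not pass the test.

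Among the called genes not yet described, those named by the rule on size were mostly falls, and many were deepest against NCD replicate 1. Igk, the immunoglobulin kappa locus, was at 423, 38.5 and 59.2 CPM in the NCD libraries and 2.87, 5.82 and 2.84 CPM in the HFD+C2 libraries, and Igh, the heavy chain locus, at 286, 29.5 and 42.96 CPM in the NCD libraries and 2.14, 4.54 and 2.46 CPM in the HFD+C2 libraries. NCD replicate 1 was the highest library by far, and the other NCD libraries still lay above all HFD+C2 libraries. The log2 changes were -5.49 (SE 0.95) and -5.29 (SE 0.91) with all libraries, -3.68 and -3.59 without NCD replicate 1, and -3.52 and -3.40 without the replicate 1 pair. These symbols denote whole loci: in RefSeq, Igk spans 3171119 bases and Igh 2751187. The constant-region genes Igkc, Ighm, Igha, Ighd, Iglc1 and Iglc2 had 0 reads in all 6 libraries. A read lying in both such a gene and a whole locus can count as ambiguous, so these zeros do not show absent transcripts. Jchain, a plasma cell gene, overlapped between groups with a log2 change of -0.45 (SE 0.77), which turned to 0.17 without the replicate 1 pair. The 20 listed B cell markers summed to 429.1, 44.1 and 67.6 CPM in NCD and 6.21, 14.2 and 6.41 CPM in HFD+C2. Igk made up most of this sum in NCD but not in HFD+C2. The part of B cells in these falls was not tested.

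Tcra, the T cell receptor alpha locus, Igl, the lambda light chain locus, and Kcnip4, a potassium channel-interacting protein with a gene of 1135620 bases, again had NCD replicate 1 as the highest library. Tcra was at 85.5, 13.1 and 18.7 CPM in the NCD libraries and 0.261, 1.61 and 0.862 CPM in the HFD+C2 libraries, and Kcnip4 at 29.4, 3.02 and 5.25 CPM in the NCD libraries and 0.209, 0.281 and 0.172 CPM in the HFD+C2 libraries. Their log2 changes were -5.39 (SE 0.86) and -5.80 (SE 0.93), and that of Igl was -5.64 (SE 0.89). The log2 changes without NCD replicate 1 were -4.12 for Tcra, -4.25 for Kcnip4 and -4.40 for Igl, and without the replicate 1 pair they were -3.72, -4.25 and -4.60. Trac, Trbc1 and Trbc2 had 0 reads, with the same limit as the constant-region genes above. Ttn, the giant muscle protein titin, was at 14.5, 0.431 and 7.67 CPM in the NCD libraries and 0.366, 0.0402 and 0.215 CPM in the HFD+C2 libraries, with NCD replicate 2 close to the HFD+C2 libraries, a log2 change of -5.25 (SE 1.04), which was -4.51 without NCD replicate 1 and -5.87 without HFD+C2 replicate 1. The unnamed loci LOC118568479, LOC118568478, LOC118567340 and Gm12176 had log2 changes from -6.19 to -5.09, and from -4.42 to -3.71 without NCD replicate 1. NCD replicate 1, the highest library in each of these genes, was also the library with 23.2% of its reads outside annotated features. Such reads made up 8.58% and 10.45% of NCD replicates 2 and 3. In HFD+C2 they made up 10.9%, 4.86% and 4.66% of replicates 1, 2 and 3. Leaving out NCD replicate 1 or the pair therefore does not make the groups equal in such reads, and their part was not tested. Gm51971, 4930529C04Rik, Myh13 and Gm29885 had 0 counts in HFD+C2. With 3 counts over the whole group put in place of 0, they were 61.7-fold, 62.8-fold, 50.02-fold and 42.2-fold lower. The lower 95% counting limits of the fold were 49.34, 50.25, 39.85 and 33.53. Of their NCD counts 78 of 111, 81 of 113, 59 of 90 and 43 of 76 came from NCD replicate 1. Without it the folds against 3 counts were 25.8, 24.99, 24.2 and 25.8, with no allowance for counting error in NCD. They averaged under 10 counts without NCD replicate 1, so were not tested there, and none was called in the other 5 fits that left out 1 library.

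Among rises, Stap1, an adaptor protein of immune signalling, had 4 counts in NCD and 305 in HFD+C2, a ratio of 45.7 with a 95% counting interval of 17.7 to 168.9. Its log2 change was 5.46 (SE 0.69), and 4.70 without the replicate 1 pair. Rgs16, a regulator of G protein signalling, was at 0.26, 0 and 1.33 CPM in the NCD libraries and 31.3, 7.99 and 53.8 CPM in the HFD+C2 libraries, with a wide spread in HFD+C2 and no overlap, a log2 change of 5.38 (SE 0.88) (edgeR adjusted p = 0.0361), which was 7.36 without NCD replicate 3 and 4.76 without HFD+C2 replicate 3. Ifi27l2b, an interferon-inducible gene, was at 2.94, 3.23 and 1.58 CPM in the NCD libraries and 39.1, 23.1 and 14.4 CPM in the HFD+C2 libraries, a log2 change of 3.38 (SE 0.45) (edgeR adjusted p = 0.0206). In each of these 3 genes every HFD+C2 library was above every NCD library. Rad51b, a recombination factor, Dsg1c, a desmoglein of cell junctions, and Sema5b, a semaphorin, rose by log2 changes of 3.94 (SE 0.75), 3.14 (SE 0.49) and 3.25 (SE 0.56). Without NCD replicate 1 and HFD+C2 replicate 1 the log2 change of Rad51b was 2.65. Without NCD replicate 3 those of Rad51b and Sema5b were 5.41 and 4.34, and without HFD+C2 replicate 1 that of Rad51b was 3.30.

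**Figure D5:**
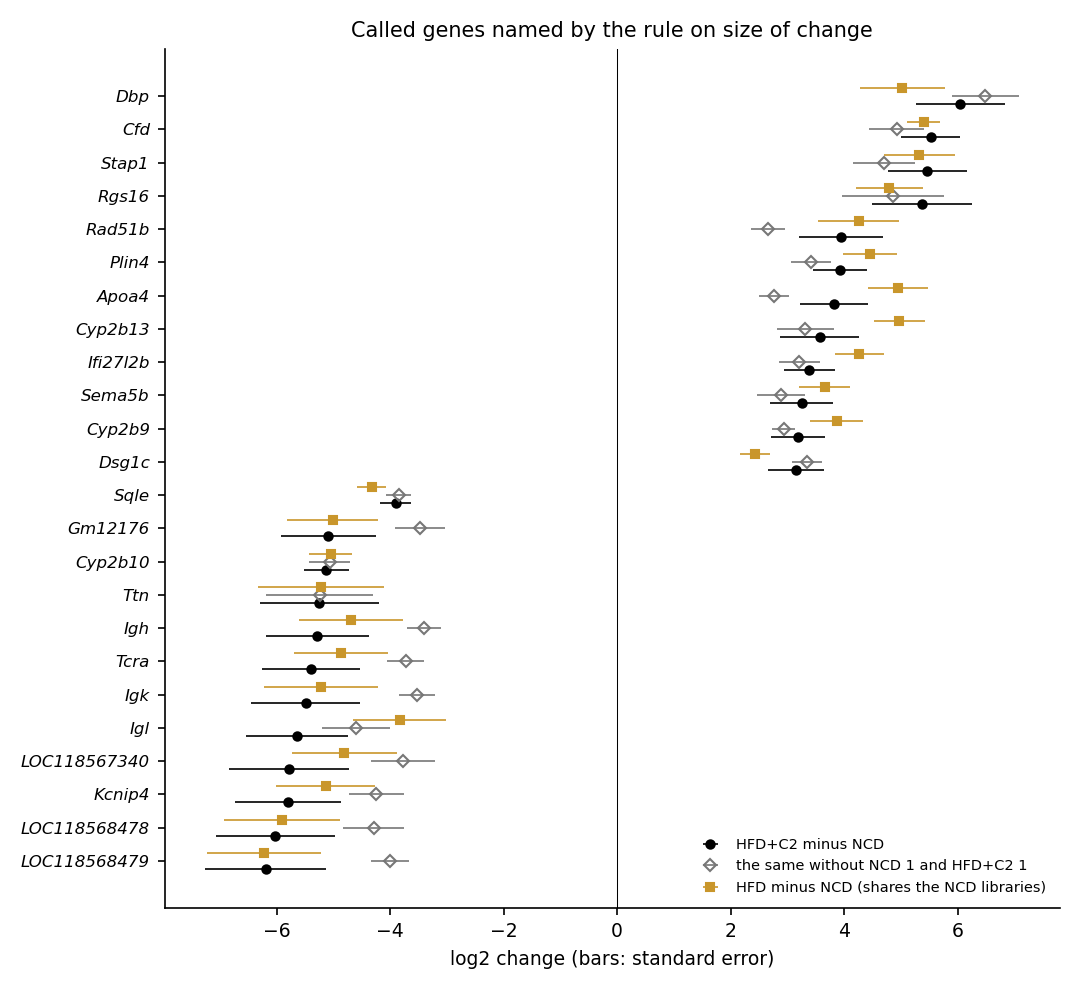
Log2 change (x axis, bars are standard errors) of 12 called genes in each direction (y axis), chosen among those with separate groups and an average of 50 or more counts by the smallest size of their log2 change over the fits that left out 1 library, for HFD+C2 minus NCD (black circles), the same without NCD replicate 1 and HFD+C2 replicate 1 (open diamonds) and HFD minus NCD, which shares the NCD libraries (yellow squares). Sqle and Cyp2b10 have nearly the same value in all 3, while Igk, Igh, Tcra and the LOC loci move toward 0 without the pair.

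For the genes that carried the larger groups, the HFD minus NCD values are set beside those of HFD+C2 minus NCD; they share the NCD libraries and are not independent of each other. Sqle had a log2 change of -4.33 (SE 0.26) in HFD and -3.90 (SE 0.27) in HFD+C2, and Cyp2b10 of -5.05 (SE 0.38) and -5.12 (SE 0.40). Cyp2b9 was at 3.87 (SE 0.47) and 3.18 (SE 0.48), Cd36 at 2.06 (SE 0.21) and 2.09 (SE 0.28), Cfd at 5.40 (SE 0.29) and 5.53 (SE 0.52), and Apoa4 at 4.95 (SE 0.53) and 3.82 (SE 0.60). The difference between the high-fat groups was estimated in a fit of HFD+C2 against HFD: it was 0.41 (SE 0.25) for Sqle, -0.09 (SE 0.55) for Cyp2b10, 0.02 (SE 0.23) for Cd36 and -1.15 (SE 0.51) for Apoa4, with edgeR adjusted p = 0.7, 0.973, 0.986 and 0.695.

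Some genes, picked after their values were seen, had unlike estimates against NCD in the 2 high-fat groups. Of those given here, only Phlda1 and Cish were called in HFD+C2 against HFD. Phlda1, an early response gene, had a log2 change of 0.14 (SE 0.47) in HFD and -1.73 (SE 0.49) in HFD+C2, both against NCD, and of -1.88 (SE 0.16) in HFD+C2 against HFD (edgeR adjusted p = 0.00753). Cish, the STAT5-induced inhibitor of cytokine signalling, had 2.00 (SE 0.89) in HFD and -1.83 (SE 0.96) in HFD+C2, and -3.65 (SE 0.33) between them (edgeR adjusted p = 0.00753). NCD replicate 2 was the highest NCD library in both, at 51.1, 133 and 29.1 CPM in NCD and 20.3, 19.9 and 23.7 CPM in HFD+C2 for Phlda1 and 0.519, 12.3 and 1.46 CPM in NCD and 1.15, 1.25 and 1.25 CPM in HFD+C2 for Cish, and without it the HFD+C2 minus NCD value of Phlda1 was -0.90 and that of Cish turned to 0.27. Acacb had -0.96 (SE 0.32) and -2.19 (SE 0.35), Npas2, a clock activator, -0.02 (SE 0.43) and -1.67 (SE 0.49), and Cyp7a1 -2.68 (SE 0.29) and -1.08 (SE 0.40). Between the high-fat groups the log2 differences were -1.24 (SE 0.17), -1.65 (SE 0.29) and 1.59 (SE 0.39), with edgeR adjusted p = 0.135, 0.418 and 0.695.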

How the data were processed

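RNA-seq libraries from mouse liver were compared, 3 NCD against 3 HFD+C2. The authors deposited 3 tables of read counts per gene, each listing 50559 genes by symbol; 2 were joined by symbol, and 0 cells differed in the HFD columns they share. Although the file names speak of normalization, the deposited values are whole-number counts whose totals differ between libraries. The submitters' processing notes name Trimmomatic 0.39, STAR 2.7, DESeq2 and the build mm10, without their roles; annotation and strand use are not given in the sources used here. The 4 rows that name no gene (27.4% to 58.1% of reads in these libraries) entered neither library sizes nor tests.

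Genes averaging 10 or more counts across the 6 libraries were tested with edgeR 4.0.16 (R 4.3.3; TMM scaling, quasi-likelihood test, Benjamini-Hochberg adjustment over all 13691 genes, called at adjusted p under 0.05). The standard error is the size of the log2 change divided by the root of F. The test was tried on simulated counts with known changes. Alternatives were DESeq2 1.42.0, limma 3.58.1 (trend on log2(CPM + 1), and voom with library weights), other scalings and count minimums, thinning, a replicate block, all 12 libraries in 1 fit, and leaving libraries out.

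Genes were named by rule: in each direction up to 12 called genes with separate groups and averaging 50 or more counts, by the smallest size of their log2 change over the fits that left out 1 library; from each list up to 4 called members, or the 2 most abundant; all tested Cyp4a genes; and up to 4 whose call is lost without NCD replicate 1 or HFD+C2 replicate 1. Other genes were named after their values were seen, namely further members of the lists, Abcd2 and those set beside the HFD group. The comparison and the lists were chosen with earlier results of these data known. Some genes counted in the lists are not reported by name here.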

Additional observations from a re-analysis of the deposited data

Results flagged for a closer look

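The reads counted outside single genes gave 4 values above every NCD library. Ambiguous reads made up 9.04% of HFD+C2 replicate 1, against 4.74% to 7.88% in NCD. Unmapped reads made up 21.9% of HFD+C2 replicate 1, against 16.1% to 21.5% in NCD. Multimapping reads made up 7.19% of HFD+C2 replicate 2 and 7.08% of HFD+C2 replicate 3, against 5.53% to 6.28% in NCD. Other values lay below every NCD library. In HFD+C2 replicates 2 and 3, ambiguous reads made up 3.92% and 3.99% and unmapped reads 11.4% and 12.2%. Reads outside features made up 4.86% and 4.66% of these libraries, against 8.58% to 23.2% in NCD. Multimapping reads made up 5.17% of HFD+C2 replicate 1. Groups of 3 libraries are too small for an outlier test.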

How the results depend on the processing

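The number of genes called was 219 with all 6 libraries and edgeR. It was 1425 with DESeq2, 3194 of 35104 without a filter on low counts, 140 with a mean of at least 50 counts, 100 with limma on log2(CPM + 1), 2571 with limma voom and library weights, 2620 with all 12 libraries in 1 fit, 131 after thinning to the smallest library, 1273 without NCD replicate 1 and HFD+C2 replicate 1 together, and 2 to 188 when 1 library was left out. Median-ratio and upper-quartile scaling gave 218 and 192, the latter with 29.2% of calls higher in HFD+C2, against 33.3%. The share higher was 43.6% with a mean of at least 50 counts, 44% with limma on log2(CPM + 1), 46.7% with voom, 45% after thinning and 49.2% without the pair. It was 0% to 45.5% when 1 library was left out, with 15.3% of 59 calls without NCD replicate 2 and 0% of 2 without NCD replicate 3 or HFD+C2 replicate 2. Without a filter the median log2 change of all genes was -0.67.

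With the replicate number as a block, 785 genes were called. Same-numbered NCD and HFD+C2 libraries correlated at 0.17, 0.11 and 0.035 in their deviations from group means, so the numbers were not taken to pair the samples. Values turned sign for named genes that were not called: Plin2 to -0.0642, Mup20 to -0.344, Jchain to 0.165, Nr1i2 to -0.02 and Scap to 0.0338 without the pair, and Mup20 to -0.176 with voom. When 1 library was left out, Mup20 ranged from -0.337 (without HFD+C2 replicate 1) to 0.776, Cyp4a31 from -0.129 (without HFD+C2 replicate 2) to 0.475, Cish from -2.35 to 0.267 (without NCD replicate 2), Jchain from -1.63 to 0.0144 (without HFD+C2 replicate 1), Scap from -0.399 to 0.112 (without HFD+C2 replicate 1) and Mup15 from -2.93 to 0.331 (above 0 without NCD replicate 2, HFD+C2 replicate 2 or HFD+C2 replicate 3). Of values of the called genes that are named, under alternatives that kept all libraries, 646 stayed past the threshold and 46 did not; with libraries left out 168 did and 314 did not. No called gene among those named turned sign. Depth limits low genes most in NCD replicate 2, with 4281210 reads in genes. The causes were not tested.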
